A study of Mus musculus with 15 samples.

Results

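H3.3 regions at the ends of protein-coding transcripts were examined in mouse bone marrow-derived macrophages (BMDMs), which are macrophages grown from bone marrow in L929-conditioned medium. Regions were chosen by the called H3.3-HA, H3K27ac and H3K36me3 regions themselves. A member was a stretch of chromatin enriched for HA-tagged H3.3 in both replicates, with its midpoint from 100 bp upstream to 1000 bp downstream of an annotated transcript end, away from start sites, and with at least 1 region of H3K27ac or H3K36me3 over it in wild-type (WT) cells. Of 27642 H3.3 regions found in both replicates on chromosomes 1 to 19 and X, 1109 (4.01%, Wilson 95% interval 3.79 to 4.25) lay at transcript ends, and 985 of these carried a WT mark. The 985 were 88.8% (86.8 to 90.5) of the regions at ends and were drawn from 22564 marked H3.3 regions at any position. All intervals given for shares of regions or genes are Wilson intervals and cover counting error only.

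The assay was CUT&RUN, in which a nuclease is brought by an antibody to its target in chromatin and the DNA fragments cut free are sequenced. H3.3 was mapped with an antibody to HA in BMDMs of mice whose H3f3b gene, 1 of the 2 H3.3 genes, carries an HA tag, so H3.3 made from H3f3a was not seen. The marks were mapped in WT cells, which hold H3f3a fl/fl and H3f3b fl/fl alleles and no Cre, and in H3.3 cKO cells, which hold the same floxed alleles and a Cre inserted at the myeloid gene Lyz2 (LysM cre). Mice were adults of both sexes on a C57BL/6 background. There were 2 replicates of H3.3-HA and 2 of each mark in each genotype, and the WT cells lacked Cre, so an effect of Cre cannot be told apart from that of the deletion. Loss of the protein depends on the timing and completeness of Cre activity in each culture. The authors describe H3f3b deletion as apparently variable, complete in some cKO samples and partial in others. Which of these holds for the cKO libraries used here was not tested.

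H3.3 is a histone H3 variant that is put into chromatin outside replication, mainly where DNA is transcribed or regulated. H3K36me3 is laid down over the bodies of transcribed genes as RNA polymerase II elongates and is strongest towards their 3′ ends. H3K27ac marks active enhancers and promoters. At a transcript end the RNA is cleaved after a poly(A) signal, usually AATAAA or ATTAAA, while the polymerase runs on downstream before it is released. The replication-coupled histone genes use a stem-loop in the RNA in place of a poly(A) tail.

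The sequences at the ends of some of these transcripts are shown here as examples, and distances were measured from the annotated end itself. The genes are among those with the widest H3.3 regions of the genes chosen for description and with a match in the last 40 bases, and Hist1h3b is added for its stem-loop. Each line holds 30 bases of the GRCm38 (mm10) genome on the strand of the gene, and capitals mark the poly(A) hexamer or, for Hist1h3b, the histone stem-loop.
Pdap1, chr5:145128774-145128803, minus strand: ggcctaggctgaATTAAAgaactaatgggc
C1qb, chr4:136880133-136880162, minus strand: aacgaatgggtcAATAAActcttcaaggcc
Ssh3, chr19:4261678-4261707, minus strand: gacattttcatATTAAAagacattttccat
Rps3a1, chr3:86137948-86137977, minus strand: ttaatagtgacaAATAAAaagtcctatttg
Scd2, chr19:44306825-44306854, plus strand: gtgtttgttcatAATAAAatgaaatgatct
Tor3a, chr1:156653621-156653650, minus strand: actggactggacAATAAAaacaaggtcagt
Ctsa, chr2:164841003-164841032, plus strand: acttattcaaaagaATTAAAatggctctgc
Hist1h3b, chr13:23752813-23752842, plus strand: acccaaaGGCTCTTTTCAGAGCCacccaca
The hexamers began 16 to 29 bases before the annotated end in these 7 genes, and the stem-loop of Hist1h3b began 67 bases before it.

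Of the annotated ends nearest to the 985 members, 678 (68.8%, 65.9 to 71.6) had AATAAA or ATTAAA within the last 40 bases on the transcript strand. Among all 38896 unique coding ends the share was 59.3% (58.8 to 59.8). The hexamer was found at 72.8% (68.0 to 77.1) of the ends whose region carried H3K36me3 alone in WT cells, at 67.9% (63.6 to 72.0) of those with both marks and at 61.8% (53.7 to 69.3) of those with H3K27ac alone. The motif TGTGT within 60 bases downstream of the end, on the same strand, was present at 21.7% (19.3 to 24.4) of the members' ends and at 20.3% (20.0 to 20.8) of all ends. A match describes letters in the genome and does not show that the signal was used.

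H3.3 regions were denser just past transcript ends than on either side. In this count every H3.3 region outside the promoter windows was used, with or without a mark, and each was assigned to its nearest coding end. Midpoints lay at 18.1 to 20.9 per Mb in the bins from 5000 to 2000 bp upstream, at 33.7 per Mb from 0 to 500 bp downstream, at 37.0 per Mb from 500 to 1000 bp and at 39.3 per Mb from 1000 to 1500 bp. The density then declined to 19.3 per Mb between 4000 and 4500 bp downstream. The window that defines the members therefore took in the rising side of this peak and not its far side. Just inside the window, the closest midpoints were those at Abhd12 (-99 bp, region 4252 bp wide, both marks) and Paxbp1 (1000 bp, 2101 bp wide, both marks). Just outside it were Kcnn4 (-101 bp, 5369 bp wide, both marks) and Acad12 (1001 bp, 4195 bp wide, H3K27ac).

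**Figure D1:**
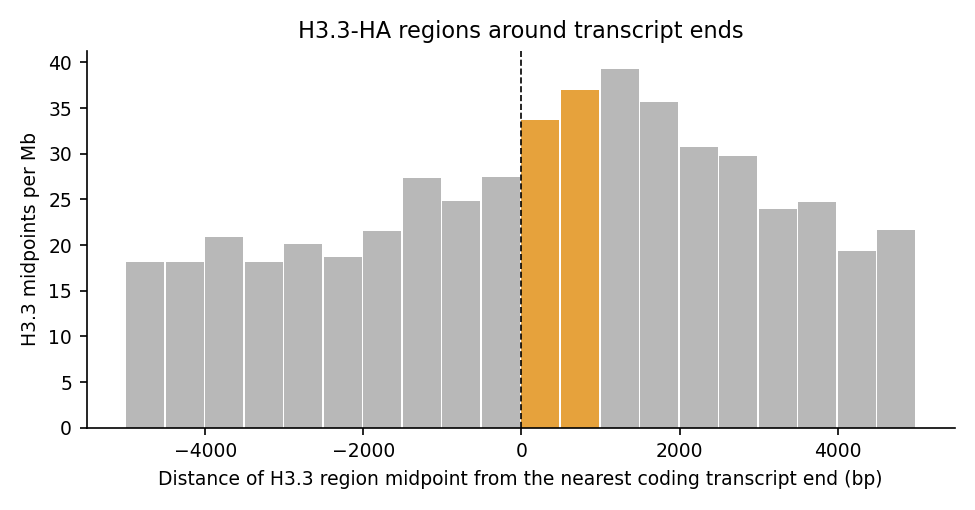
Density of H3.3-HA region midpoints (per Mb of genome, y axis) by distance from the nearest coding transcript end (bp, x axis, 500 bp bins, positive is downstream); orange bars lie downstream of the end inside the window that defines the members, gray bars outside or partly outside it. The highest bar, 39.3 per Mb, covers 1000 to 1500 bp downstream, against 18.2 per Mb in the bin farthest upstream.

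The members were wide and mostly ran across the annotated transcript end. Their width had a median of 2329 bp and ranged from 502 to 21163 bp, and 143 exceeded 5 kb. The merged regions of the 1109 ends had a median width of 2153 bp, against 1500 bp at promoters, 1734 bp in introns and 1568 bp in intergenic DNA. H3.3 regions in exons, outside the windows at ends and start sites, came closest to ends, with a median of 1972 bp. The region spanned the annotated end in 868 of 985 members (88.1%) and reached a median of 719 bp upstream and 1661 bp downstream of it. The rule puts the midpoint from 100 bp upstream to 1000 bp downstream of an end. It thus favors regions that span the end and reach farther downstream, so these values are a description. In 206 members (20.9%, 18.5 to 23.6) the nearest end belonged to a shorter transcript and lay over 1 kb before the last end of the gene, against 24.8% (24.4 to 25.2) of all coding ends. Another coding gene on the opposite strand ended within 1 kb in 134 members (13.6%, 11.6 to 15.9), and in 76 the midpoint lay in the window of more than 1 gene. The median gene length was 18134 bp, against 17376 bp over all coding genes. H3.3-HA replicate 2 covered more of the merged width (85.4%) than replicate 1 (68.0%), and 53.4% was covered by both, so the outer parts of many members rest on 1 library.

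The presence of H3.3 at an end went with H3K36me3 over the gene. For this count the 1109 regions were used whether or not they carried a mark, so that the marks had no part in choosing them. Of 11119 coding genes with no H3K36me3 region over the gene body in either WT library, 155 (1.39%, 1.19 to 1.63) had an H3.3 region at an end. The share was 4.98% (4.30 to 5.76) for coverage of up to 25%, 8.63% (7.60 to 9.79) from 25 to 50%, 12.6% (11.4 to 13.9) from 50 to 75% and 15.4% (13.8 to 17.2) above 75%. With the cKO libraries in place of WT the shares ran in the same order, from 1.44% (1.23 to 1.67) to 20.4%. The H3.3-HA and mark libraries came from different mice.

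By the WT marks, 364 members (37.0%) carried H3K36me3 alone, 477 (48.4%, 45.3 to 51.5) both marks and 144 (14.6%, 12.6 to 17.0) H3K27ac alone. These marks were part of the rule, and the shares are a description. In the marked H3.3 regions of introns, H3K36me3 stood alone in 7.51% and H3K27ac alone in 47.6%, and at promoters in 4.64% and 79.9%. Those in exons were nearer to ends, with H3K36me3 alone in 20.2%, both marks in 55.7% and H3K27ac alone in 24.1%. The 124 regions at ends with no WT mark were narrower, with a median of 1226 bp.

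Members with H3K27ac alone differed from the other members in where they lay. The nearest coding start site was within 5 kb in 73 of 144 (50.7%, 42.6 to 58.7), against 116 of 364 members with H3K36me3 alone (31.9%, 27.3 to 36.8) and 153 of 477 with both (32.1%, 28.0 to 36.4). An opposite-strand coding end lay within 1 kb in 2.78% (1.09 to 6.92) of them, against 14.6% (11.3 to 18.6) and 16.1% (13.1 to 19.7). Single-exon transcripts made up 10.4% (6.41 to 16.5) of those with H3K27ac alone, 0.824% (0.281 to 2.39) of those with H3K36me3 alone and 1.47% of those with both. These traits were not particular to H3K27ac. Of the 124 regions at ends with no WT mark, 46.8% (38.2 to 55.5) had a start site within 5 kb. An opposite-strand end within 1 kb was present in 5.65% (2.76 to 11.2) of the 124, and single-exon transcripts made up 5.65% (2.76 to 11.2). Members with both marks were the widest, with a median of 2842 bp, against 2154 bp for H3K36me3 alone and 1630 bp for H3K27ac alone.

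Motifs of macrophage transcription factors were counted in 300 bp at the midpoint, on both strands. The core of a PU.1 site, GAGGAAGT, was present at 1 of 364 members with H3K36me3 alone (0.275%, 0.0485 to 1.54), at 17 of 477 with both marks (3.56%, 2.24 to 5.63) and at 7 of 144 with H3K27ac alone (4.86%, 2.37 to 9.69). At the regions at ends without a WT mark it was present at 10 of 124 (8.06%, 4.44 to 14.2), so its share did not follow H3K27ac alone. Over all H3.3 regions it was present in 4.94%, and in windows of the same length centred 450 bp downstream of all coding ends in 1.80%. PU.1 is the ETS factor that directs macrophage differentiation. The C/EBP motif TTGCNNAA was found at 7.14% (4.92 to 10.3) of members with H3K36me3 alone, 16.1% (13.1 to 19.7) with both and 11.8% (7.50 to 18.1) with H3K27ac alone, against 13.2% of all H3.3 regions and 12.1% of the windows past all ends. The AP-1 motif TGANTCA was found at 8.24%, 10.3% and 11.1% of the same groups, against 12% of all H3.3 regions and 8.34% past all ends, and the IRF motif, a pair of GAAA repeats, at 3.02%, 3.14% and 6.94%, against 4.74% and 3.68%. Regions at ends without a WT mark had the C/EBP motif at 13.7% (8.74 to 20.9), AP-1 at 8.06% (4.44 to 14.2) and IRF at 7.26% (3.87 to 13.2). For the NF-kB motif the share over all members was 0.609%, against 1.11% of all H3.3 regions, and for the GC box GGGGCGGGG it was 1.02%, against 0.825%. The median GC content of the 300 bp was 46.0% in members and 45.3% in all H3.3 regions.

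Stretches at the midpoints of 2 members with H3K27ac in WT cells are shown because they hold such a motif and no annotated exon. Each is 150 bases of GRCm38 (mm10) on the strand of the gene, and capitals mark the AP-1 motif at Slc40a1 and 2 overlapping C/EBP motifs at Apobec1.
Slc40a1, chr1:45907498-45907647, minus strand: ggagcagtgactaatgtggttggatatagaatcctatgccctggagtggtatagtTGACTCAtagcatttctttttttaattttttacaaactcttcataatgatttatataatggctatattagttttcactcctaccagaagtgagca
Apobec1, chr6:122577314-122577463, minus strand: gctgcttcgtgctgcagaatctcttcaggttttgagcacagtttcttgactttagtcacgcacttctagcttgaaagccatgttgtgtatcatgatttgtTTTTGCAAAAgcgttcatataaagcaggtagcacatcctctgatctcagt

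The 6 widest members all carried both marks in WT cells. The widest lay at an end of Vsir, which encodes the immune checkpoint receptor VISTA, at chr10:60358797-60379959, around the end of a transcript that lies 3391 bp before the last Vsir end. H3K27ac regions covered 12268 and 9508 bp of it in WT and 3465 and 9145 bp in cKO, and H3K36me3 regions covered 11568 and 12637 bp in WT and 9476 and 14663 bp in cKO. The replicates of the cKO differed more from each other than the groups did. At Lgals3 (galectin-3, a lectin abundant in macrophages, chr14:47377426-47394644), H3K27ac covered 11606 and 10396 bp in WT and 2326 and 4495 bp in cKO, while H3K36me3 covered 7600 and 9002 bp in WT and 11673 and 14732 bp in cKO. At this end the groups did not overlap for either mark, and the marks differed in opposite directions. Plin2, which encodes a coat protein of lipid droplets, had H3K27ac over 8012 and 6914 bp in WT and over 2063 and 678 bp in cKO, with H3K36me3 over 13052 and 12400 bp and over 11105 and 13052 bp of a region of 13052 bp (chr4:86649244-86662295). Its nearest transcript end lay 8179 bp before the last end of the gene. At Apobec1, an RNA-editing cytidine deaminase (chr6:122569424-122585354), H3K27ac covered 7294 and 9275 bp in WT and 4286 and 3355 bp in cKO, and H3K36me3 6582 and 7666 bp in WT and 9334 and 10567 bp in cKO. Tmem140, a transmembrane protein gene whose region (chr6:34867403-34882912) held 3 coding start sites, had H3K27ac over 14680 and 12656 bp in WT and 9960 and 9826 bp in cKO, and H3K36me3 over 5733 and 5070 bp and over 7846 and 10942 bp. The last of the 6 lay at the ends of Atxn2, an RNA-binding protein gene, and Sh2b3, an adaptor of cytokine signaling (chr5:121808970-121821587), with H3K27ac over 3272 and 2589 bp in WT and 2041 and 2281 bp in cKO and H3K36me3 over 9517 and 8161 bp and over 9357 and 10232 bp. In these 6 regions covered length of H3K27ac was lower in both cKO libraries than in both WT libraries, an order also seen in 287 of 421 members with H3K27ac in both WT libraries (68.2%, 63.6 to 72.4) and in 59.9% of all such H3.3 regions. The reverse order was seen in 23 of the 421 members (5.46%, 3.67 to 8.06) and in 6.09% of all such regions. Both counts took only regions with H3K27ac in both WT libraries, a choice that favors lower cKO values over higher ones. For H3K36me3, both cKO libraries lay above both WT libraries at Lgals3, Apobec1 and Tmem140, and the groups overlapped at the other 3. That order was seen in 110 of 747 members with H3K36me3 in both WT libraries (14.7%, 12.4 to 17.4) and in 16.6% of all such regions, and the reverse in 208 members (27.8%, 24.7 to 31.2) and in 20.0% of all such regions, with cKO replicate 1, whose list covers less of the genome, among the libraries. No test was made for single regions, because the lists give no height or p-value.

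Before the genotypes are compared, the libraries need a word. Sequencing gave 5365319 and 6951296 tags for H3.3-HA and 14027132 to 29988098 for the marks, and the WT and cKO lists were called against different IgG controls, so genotype and control cannot be told apart. Replicate 1 of cKO H3K36me3 stood apart, with 19.3% of its tags in regions and 90.6 Mb covered, against 46.5% to 50.2% and 163 to 170 Mb in the other H3K36me3 libraries. For H3K27ac, WT lists held 61764 and 54630 regions and cKO lists 35018 and 41443. Of 10 macrophage markers, 9 or 10 had an H3K27ac region and 8 or 9 an H3K36me3 region in each mark library. Markers of T cells and fibroblasts had no region of either mark in any mark library, though H3.3-HA regions lay at 2 of 5 T cell markers, and those of neutrophils and erythroid cells had none in WT, at most 2 of 5 and 1 of 3 for cKO H3K27ac and none for H3K36me3. Among 4 B cell markers, Ms4a1 had H3K27ac in all 4 libraries and Cd79a in replicate 2 of WT and of cKO, and Ms4a1 had H3K36me3 in cKO replicate 2 only.

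H3K27ac was found at fewer H3.3 regions at ends in cKO than in WT. To keep the marks out of the choice, the comparison used all 1109 regions at ends. H3K27ac overlapped 49.8% and 44.2% of them in WT and 30.7% and 37.6% in cKO, which gave 47.0% ± 3.95 and 34.2% ± 4.85 (SD, n = 2 each) and a difference of -12.8 percentage points. Both cKO libraries lay below both WT libraries, and the two-sided exact permutation test gave p = 0.333, the smallest that 2 against 2 libraries allow. In bases, H3K27ac covered 28.7% and 23.2% of the H3.3 length at ends in WT and 13.0% and 18.0% in cKO, a difference of -10.5 points (exact permutation p = 0.333). When the lists were cut to the same number of regions, the widest 35018 for H3K27ac, the difference in the share of regions shrank to -3.56 points (37.7% and 35.2% in WT, 31.0% and 34.8% in cKO) and that in bases to -8.11 points. Over all H3.3 regions the difference was -15.1 points. The H3.3 regions were called only in cells that hold H3.3, and no cKO list took part in choosing them. How far this choice favors WT marks was not tested.

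H3K36me3 overlapped 69.2% and 74.0% of the regions at ends in WT and 56.7% and 73.2% in cKO, and the groups overlapped (71.6% ± 3.44 and 65.0% ± 11.7, SD, n = 2 each, difference -6.63 points, exact permutation p = 0.667). In bases the values were 50.3% and 52.9% in WT and 39.0% and 57.0% in cKO (exact permutation p = 1.00). Without cKO replicate 1, the library that stood apart, the difference turned to 1.62 points for regions and 5.40 points for bases.

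**Figure D2:**
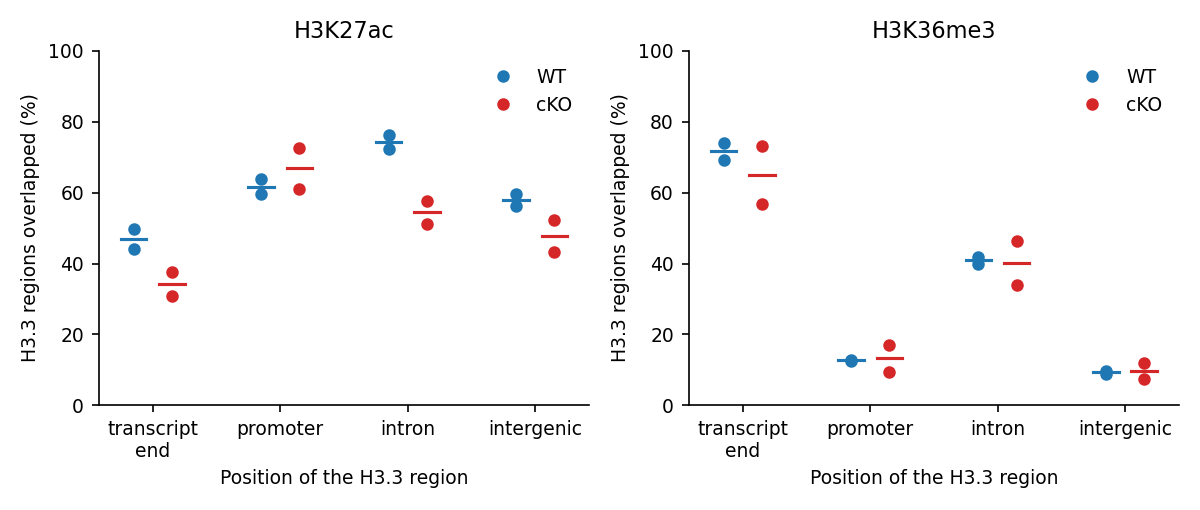
Share of H3.3-HA regions overlapped by H3K27ac (left) or H3K36me3 (right) regions in each library (%, y axis) by the position of the H3.3 region (x axis), chosen without regard to marks; points are libraries (n = 2), lines are means, blue is WT and red is cKO. For H3K27ac both cKO points lie below both WT points at ends, in introns and in intergenic DNA, but not at promoters.

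The genotype difference at ends was set against that at other positions within each library, as a difference in percentage points, which takes out an additive shift of a whole list and not a proportional one. For H3K27ac, the share at ends minus that at promoters was -14.1 and -15.3 points in WT and -30.1 and -35.1 points in cKO. This contrast was more negative in cKO by -17.9 points (exact permutation p = 0.333), or -16.9 points with lists of equal number. The share at ends minus that in introns was -26.3 and -28.0 points in WT and -20.4 and -20.1 points in cKO, and cKO minus WT was 6.86 points (exact permutation p = 0.333), or 9.64 with lists of equal number. Against intergenic DNA cKO minus WT was -2.71 points (exact permutation p = 0.333), and -1.44 points with lists of equal number, where the groups overlapped. As a ratio of the means, cKO over WT was 0.727 at ends, 0.735 in introns, 0.789 in exons, 0.826 in intergenic DNA and 1.08 at promoters. Ends and introns, which differ in points, thus had nearly the same ratio. For H3K36me3, ends exceeded introns by 29.1 and 32.2 points in WT and 22.7 and 26.9 points in cKO (exact permutation p = 0.333). Exons were nearer to ends, with 62.5% and 64.1% of H3.3 regions overlapped in WT and 54.3% and 67.6% in cKO. No comparison of 2 against 2 libraries could reach 0.05.

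Along the 1109 ends with H3.3, H3K27ac formed a peak past the end in WT that was lower in cKO. In the first 1 kb downstream it covered 28.1% and 23.7% of bases in WT and 11.5% and 16.3% in cKO, a ratio of 0.537 between the means. From 3 to 5 kb downstream it covered 14.5% and 11.8% in WT and 8.70% and 12% in cKO, a ratio of 0.787, and the groups overlapped. The ratio in the first 1 kb downstream of all 38896 coding ends was 0.664, on a coverage of 6.30% and 4.82% in WT and 2.97% and 4.41% in cKO. Coverage in the 1 kb downstream divided by that in the 1 kb upstream was 1.46 and 1.60 in WT and 1.28 and 1.35 in cKO at the H3.3 ends (exact permutation p = 0.333), and 1.04 and 1.06 in WT and 1.12 and 1.14 in cKO at all coding ends. H3.3 itself covered 67.7% and 78.3% of bases in the first 1 kb downstream of the H3.3 ends, which the rule fixes. The H3.3 ends were chosen in cells that hold H3.3, and the part of this choice in the ratios was not tested.

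H3K36me3 dropped across the end in every library. At the H3.3 ends it covered 59.5% and 63.6% of the last 1 kb upstream in WT and 46.1% and 48.4% of the first 1 kb downstream. In cKO the values were 40.3% and 63.0% upstream and 32.7% and 53.9% downstream. The ratio of downstream to upstream coverage was 0.775 and 0.761 in WT and 0.811 and 0.856 in cKO, with both cKO libraries above both WT libraries (0.768 ± 0.00975 and 0.833 ± 0.0312, SD, n = 2 each, exact permutation p = 0.333). The part of depth and of the calling threshold in this ratio was not tested. Across all coding ends the ratio was 0.857 and 0.859 in WT and 0.853 and 0.865 in cKO, and the groups overlapped.

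**Figure D3:**
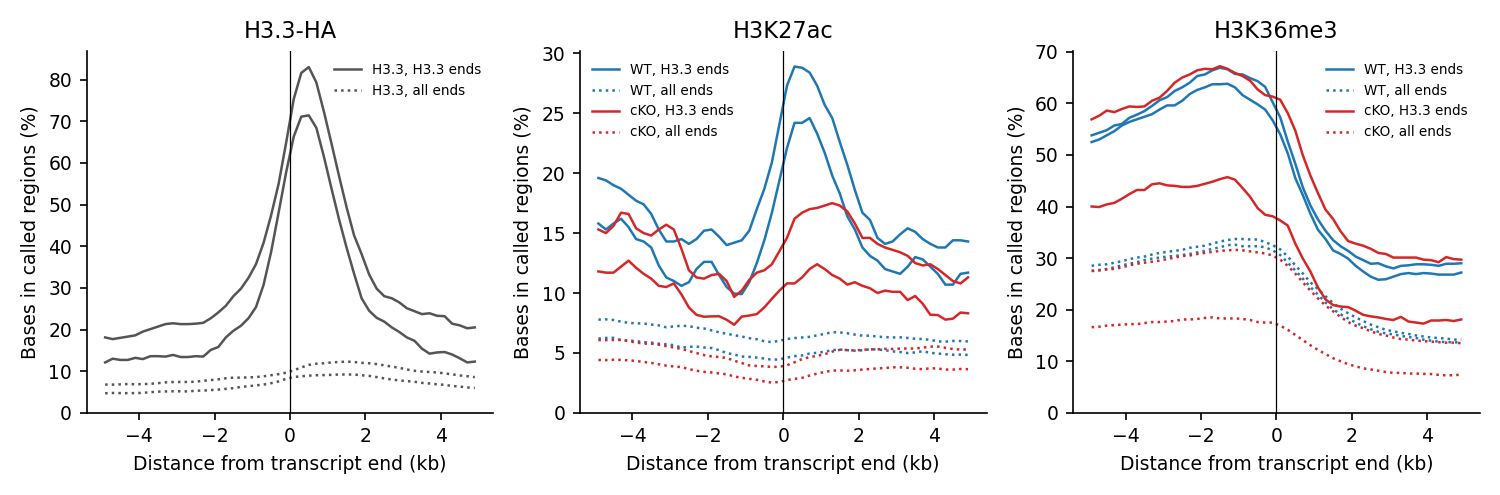
Share of bases inside called regions (%, y axis) in 200 bp bins from 5 kb upstream to 5 kb downstream of transcript ends (x axis, kb) for H3.3-HA, H3K27ac and H3K36me3; solid lines are the 1109 ends with an H3.3 region, dotted lines all 38896 coding ends, each line is 1 library, gray is H3.3-HA, blue is WT and red is cKO. H3K27ac covered 28.1% and 23.7% of the first 1 kb downstream in WT and 11.5% and 16.3% in cKO, and the lowest solid line for H3K36me3 is cKO replicate 1.

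Region by region, 421 members had H3K27ac in both WT libraries. Of these, 107 had it in neither cKO library, 25.4% (21.5 to 29.8), against 20.6% of all H3.3 regions with H3K27ac in both WT libraries. At promoters the share was 7.51% (5.76 to 9.74), in introns 21.7% (20.9 to 22.4) and in exons 19.8% (16.7 to 23.3). H3K27ac remained in both cKO libraries at 215 members, 51.1% (46.3 to 55.8), against 59.7% of all such regions. With lists of equal number the WT-only share was 20.5% (16.4 to 25.2) at ends and 18.4% over all regions, so the share at ends was then near the background. Compared with the 215, the 107 were narrower (median 1893 against 3203 bp) and farther from a coding start site (median 11648 against 6665 bp), and a start site within 5 kb was present in 23.4% (16.4 to 32.2) against 43.3% (36.8 to 49.9). Narrow regions have fewer bases for an overlap, and the part of width in the call was not tested.

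H3K36me3 in all 4 libraries was about as frequent at members that lacked H3K27ac in cKO as at those that had it. Of the 107 members with H3K27ac in WT only, 62 (57.9%, 48.5 to 66.9) had H3K36me3 in all 4 libraries and 3 had it in WT only. Of the 215 that kept H3K27ac, 125 (58.1%, 51.5 to 64.5) had H3K36me3 in all 4 libraries and 4 in WT only. Over all H3.3 regions the corresponding shares with H3K36me3 in all 4 libraries were 22.8% and 23.6%.

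The 5 members with H3K27ac in WT only that had the most WT H3K27ac all carried H3K36me3 in every library. Slc40a1 encodes ferroportin, the iron exporter of macrophages, and its end region (chr1:45904761-45910385) had H3K27ac over 4599 and 3631 bp in WT and 0 bp in both cKO libraries. H3K36me3 covered 2495 and 3269 bp there in WT and 717 and 3225 bp in cKO. The AP-1 motif shown above lies at the midpoint of this region. Tnfaip3, which encodes the NF-kB inhibitor A20, had H3K27ac over 4797 and 3077 bp of a region of 4797 bp in WT (chr10:18998348-19003144) and 0 bp in cKO, and H3K36me3 over 4797 and 4308 bp in WT and all 4797 bp in both cKO libraries. At Ssh3, a phosphatase gene of the actin regulator cofilin (chr19:4256955-4265245), WT H3K27ac covered 4049 and 1574 bp. It covered 2103 and 3480 bp at Ankrd37, an ankyrin-repeat gene (chr8:45994946-45998425), and 2707 and 1903 bp at Mdm2, the ubiquitin ligase of p53 (chr10:117684344-117693232). All 3 had 0 bp of H3K27ac in both cKO libraries, and H3K36me3 over 2400 to 4816 bp in WT and 2875 to 5387 bp in cKO.

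H3K27ac in both cKO libraries and neither WT library was found at 17 of 488 regions at ends that lacked it in WT, 3.48% (2.19 to 5.51), against 9.64% of all such H3.3 regions and 25.6% (21.5 to 30.2) at promoters. In exons the share was 8.87% (6.25 to 12.4). With lists of equal number the shares were 6.62% (4.92 to 8.86) at ends and 12.4% over all regions. The 5 with the most cKO H3K27ac lay at Hist1h1b, a linker histone gene, Cracr2b, a regulator of calcium channels, Btd (biotinidase), H3f3b and 1700067K01Rik. At Hist1h1b (chr13:21777773-21781585) H3K27ac covered 3078 and 2894 bp in cKO, the region held the start site of this single-exon gene, and no H3K36me3 was called. At Cracr2b (chr7:141462948-141469807), whose region held 4 coding start sites, it covered 2427 and 2329 bp. The regions of Hist1h1b, Btd and 1700067K01Rik carried no WT mark and so are not among the 985.

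Both H3.3 genes had a member at an end. H3f3b carries the HA tag in the H3.3-HA mice and is floxed over its exons in the WT and cKO mice. Its region (chr11:116019565-116023252) had H3K27ac over 0 and 0 bp in WT and 1146 and 1182 bp in cKO, and H3K36me3 over 645 and 860 bp in WT and 2578 and 2723 bp in cKO. Over the whole H3f3b gene, H3K27ac covered 23.9% and 24.1% in WT and 55.4% and 73.6% in cKO, and the region lists give no check of the deletion. At the end of H3f3a (chr1:180800439-180805557), of which the floxed design removes an internal exon, H3K27ac covered 750 and 660 bp in WT and 0 and 628 bp in cKO, and H3K36me3 4379 and 5119 bp in WT and 4578 and 5119 bp in cKO. H3f3b was named by the rule on cKO-only regions, and H3f3a was added after its values were seen, as the partner gene. Both genes have processed copies elsewhere in the genome, and how reads that fit several places were handled is not given in the sources used here.

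For H3K36me3, 747 members had the mark in both WT libraries. Of these, 570 (76.3%, 73.1 to 79.2) had it in both cKO libraries, against 75.2% of all H3.3 regions, and 51 (6.83%, 5.23 to 8.87) in neither, against 6.30%. Both shares were close to the background. The 5 with the most WT H3K36me3 lay at Cd14, the lipopolysaccharide co-receptor, Mrpl52, a mitochondrial ribosomal protein gene, Kdm2a, a histone demethylase gene, Egr2, a zinc-finger transcription factor, and Tcp11l2. Cd14 (chr18:36722399-36726193) had H3K36me3 over 2131 and 1707 bp in WT and 0 bp in cKO, and H3K27ac over 3329 and 0 bp in WT and 2292 and 1756 bp in cKO. At Egr2 (chr10:67541614-67543484) H3K36me3 covered 1204 and 1340 bp in WT and no H3K27ac was called in any library. Mrpl52 (chr14:54428562-54432135) had 1536 and 1765 bp, Kdm2a (chr19:4311084-4316394) 1846 and 1223 bp and Tcp11l2 (chr10:84613777-84616072) 1274 and 1239 bp of H3K36me3 in WT, and none in cKO.

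H3K36me3 in both cKO libraries and neither WT library was found at 15 of 268 regions at ends, 5.60% (3.42 to 9.03), against 2.94% of all H3.3 regions and 4.52% (4.1 to 4.98) in introns. In exons the share was higher than at ends, 7.95% (5.59 to 11.2), and the intervals overlapped. With only the regions of which the mark covered at least 50% counted, the number was 31. The 5 with the most cKO H3K36me3 lay at Lpar5, a lysophosphatidic acid receptor gene, Arnt, the partner of hypoxia-inducible factors, Gnb3, a G-protein subunit gene, Rpl12, a ribosomal protein gene, and Bbs10, a chaperonin-like gene. At Arnt (chr3:95495750-95497032) H3K36me3 covered the whole 1283 bp in both cKO libraries and 0 bp in WT, while H3K27ac covered 1283 and 961 bp in WT and 1283 and 781 bp in cKO. Its nearest end was 1669 bp before the last end of the gene. Gnb3 had 584 and 1797 bp, Lpar5 1088 and 1637 bp, Rpl12 811 and 1291 bp and Bbs10 501 and 1342 bp of H3K36me3 in cKO. The Bbs10 region carried no WT mark and so is not a member. In each of these 5 regions cKO replicate 1, the library that stood apart, had less than or as much as replicate 2.

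**Figure D4:**
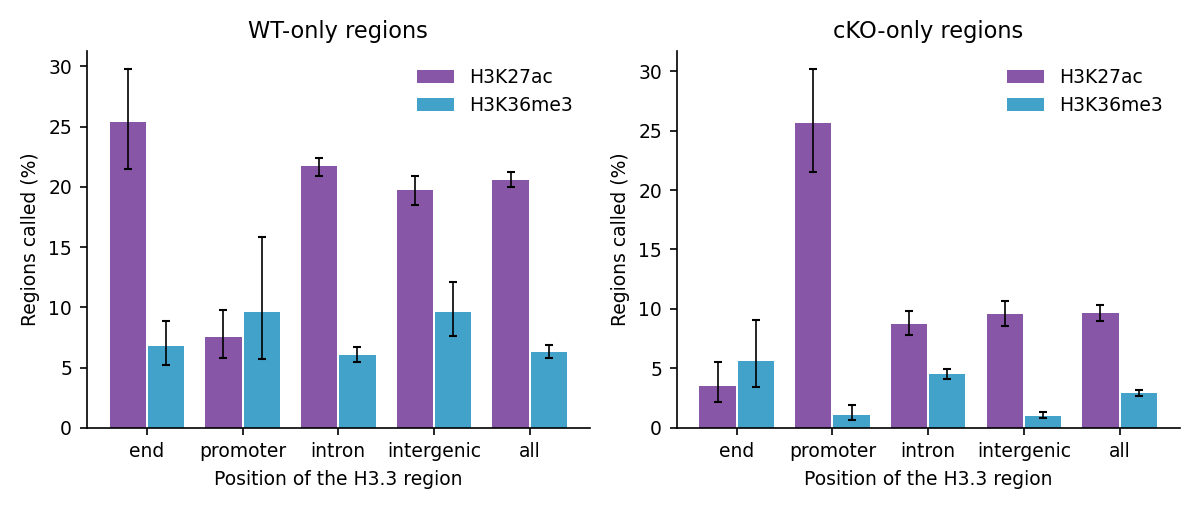
Share of H3.3 regions (%, y axis) called WT only (left, of those with the mark in both WT libraries) and cKO only (right, of those with it in neither WT library) by the position of the region (x axis); purple is H3K27ac, blue is H3K36me3, and error bars are Wilson 95% intervals. For H3K27ac the end bar stands at 25.4% WT only and 3.48% cKO only, and the promoter bar at 7.51% and 25.6%.

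Gene lists were compared by how many of their genes had a member at an end, which is a description, since the marks that choose the members follow transcription. Of 21668 coding genes, 1040 (4.80%, 4.52 to 5.09) did. The share was 25.9% (22 of 85) for cytoplasmic ribosomal protein genes, 25% (10 of 40) for housekeeping and cytoskeleton genes, 22.7% (10 of 44) for immediate early genes, 20.0% (7 of 35) for macrophage genes, 17.6% (12 of 68) for interferon genes, 16.7% (5 of 30) for lysosome genes, 15.2% (5 of 33) for cholesterol and lipid genes and 10.4% (7 of 67) for replication-coupled histone genes. All 8 shares lay above that of all coding genes, and the interval of the histone list (5.15 to 20.0) came closest to it.

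**Figure D5:**
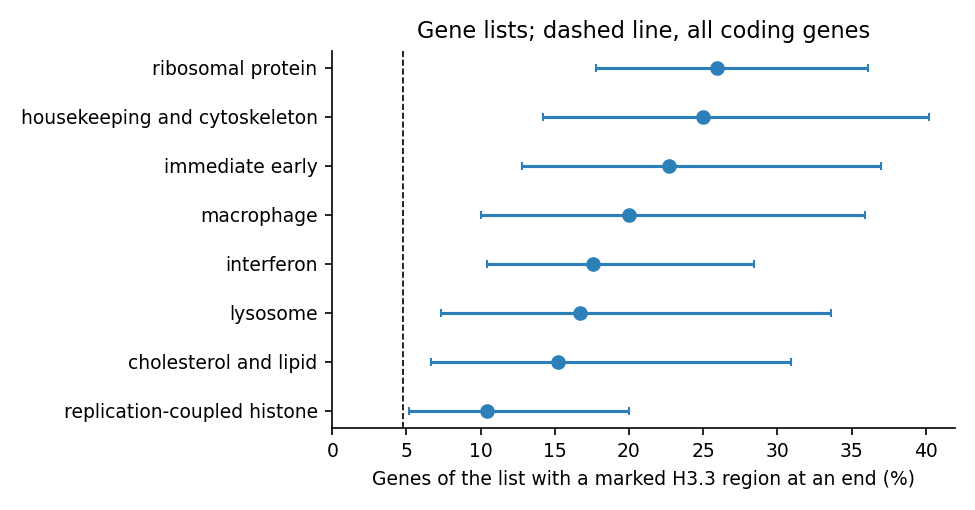
Share of the genes of each list that had a marked H3.3 region at a transcript end (%, x axis), by list (y axis); points are shares, bars are Wilson 95% intervals, and the dashed line is the share over all coding genes, 4.80%. The ribosomal protein list stands highest at 25.9% and the replication-coupled histone list lowest at 10.4%.

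Ribosomal protein genes are short and highly transcribed, and 21 of their 22 members had H3K36me3 in both WT and both cKO libraries. The only exception was Rpl12, described above. Of all H3.3 regions with H3K36me3 in both WT libraries, 75.2% had it in both cKO libraries. H3K27ac was present in both WT libraries at 7 of the 22 and remained in both cKO libraries at 6, against 59.7% of all H3.3 regions. At Rps3a1 (chr3:86132852-86141066) H3K36me3 covered 5977 and 5880 bp in WT and 6625 and 5805 bp in cKO, and H3K27ac 1585 and 630 bp and 901 and 462 bp, and both pairs of groups overlapped. Rpl23 (chr11:97773905-97780715) had H3K36me3 over 4587 and 4216 bp in WT and 5109 and 4441 bp in cKO. Ribosomal protein genes have many processed copies, so their regions may gain or lose reads by the mapping.

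Immediate early genes are switched on within minutes of a stimulus, and their products include transcription factors and feedback inhibitors. H3K36me3 was present in both WT libraries at 9 of their 10 members and in all 4 libraries at 8, with Egr2 as the WT-only region and Dusp1 as a cKO-only region. Over all H3.3 regions the same calls had shares of 75.2% kept, 6.30% WT only and 2.94% cKO only. H3K27ac was present in both WT libraries at 7 and in neither cKO library at 3 of them, Tnfaip3, Fos and Myc, against 20.6% of all H3.3 regions. Zfp36l1, an RNA-binding protein gene, had H3K27ac in cKO only, over 501 and 501 bp. At Fos (chr12:85475357-85480865) H3K27ac covered 501 and 501 bp in WT, a single minimal region, and 0 bp in cKO, and H3K36me3 covered 2037 and 2222 bp in WT and 2705 and 2791 bp in cKO. At Myc it was 553 and 757 bp of H3K27ac in WT and 0 bp in cKO, and 2321 and 2637 bp of H3K36me3 in WT and 2653 and 3168 bp in cKO. For both genes H3K36me3 covered more bases in both cKO libraries. Of all H3.3 regions with H3K36me3 in both WT libraries, 16.6% showed this order. Nfkbid, a nuclear inhibitor of NF-kB (chr7:30426043-30432548), kept H3K27ac, with 2363 and 2992 bp in WT and 1146 and 2774 bp in cKO.

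Macrophage genes with a member included the complement genes C1qa and C1qb, the apoptotic cell receptor Mertk, Gpnmb, Cx3cr1, Lgals3 and Cd14. H3K27ac was present in both WT libraries at 5 of these 7 and in neither cKO library at 3, C1qa, C1qb and Mertk, against 20.6% of all H3.3 regions, and with so few regions no share was read. C1qb (chr4:136875687-136884636) had H3K27ac over 1357 and 378 bp in WT and 0 bp in cKO, and H3K36me3 over 5748 and 6179 bp in WT and 6387 and 6561 bp in cKO. At Mertk it was 1002 and 1299 bp of H3K27ac in WT and 0 bp in cKO. Cx3cr1, the fractalkine receptor, had 1004 and 0 bp in WT and 873 and 3826 bp in cKO.

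Interferon genes with a member were Sp100, Tor3a, Usp18, Ifitm3, Irgm1, Xaf1, Slfn5, Irf9, Parp9, Mx1, H2-K1 and H2-D1, which include antiviral effectors, a negative regulator of the receptor (Usp18) and class I antigen presentation genes. H3K36me3 was present in both WT libraries at 10 of the 12 and in both cKO libraries at all 10, against 75.2% of all H3.3 regions. H3K27ac was in both WT libraries at 5, of which 3 had it in both cKO libraries and 1, Ifitm3, in neither, where WT regions touched 32 and 8 bp of it. The shares of all H3.3 regions were 59.7% in both cKO libraries and 20.6% in neither. At Sp100 H3K27ac covered 1468 and 1029 bp in WT and 2052 and 2052 bp in cKO. At Usp18 it covered 289 and 128 bp in WT and 571 and 471 bp in cKO. In both, the cKO values lay above the WT values, as in 6.09% of all H3.3 regions with H3K27ac in both WT libraries. At Tor3a and Ifitm3 they lay below, as in 59.9% of those regions, and at Mx1 the groups overlapped. H2-D1 was the cKO-only region, with 466 and 586 bp in cKO, against a background of 9.64%. At Mx1, an antiviral GTPase (chr16:97443765-97451308), H3K36me3 covered 3092 and 3561 bp in WT and 4682 and 4824 bp in cKO, and H3K27ac 501 and 501 bp in WT and 649 and 0 bp in cKO. Tor3a, an interferon-inducible torsin gene (chr1:156648876-156656478), had H3K27ac over 4023 and 2130 bp in WT and 1140 and 695 bp in cKO and H3K36me3 over 6057 and 7603 bp and over 3223 and 5793 bp. The cKO values were above the WT values for H3K36me3 at Mx1 and below them at Tor3a. Of all H3.3 regions with H3K36me3 in both WT libraries, 16.6% showed the first order and 20.0% the second.

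Lysosome genes, which encode acid hydrolases and their helpers, had 5 members, all with H3K36me3 in all 4 libraries. Of all H3.3 regions with H3K36me3 in both WT libraries, 75.2% had it in both cKO libraries. At Ctsa, protective protein cathepsin A (chr2:164837683-164844704), H3K36me3 covered the whole 7022 bp in 3 libraries and 5052 bp in cKO replicate 1, and H3K27ac was absent. Psap, the saposin precursor, shared its region (chr10:60298419-60307118) with the convergent gene Cdh23, and H3K36me3 covered 5684 and 5548 bp of it in WT and 8529 and 8700 bp in cKO. Lipa, the acid lipase, had 501 and 653 bp of H3K27ac in WT and 0 bp in cKO.

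Of 5 cholesterol and lipid genes, Msmo1, Acly, Fasn, Sqle and Scd2, all enzymes of sterol or fatty acid synthesis, 3 had H3K27ac in both WT libraries, and none of these 3 had it in a cKO library. At Scd2, a fatty acid desaturase (chr19:44303464-44311145), H3K27ac covered 1165 and 1002 bp in WT and 0 bp in cKO, and H3K36me3 4331 and 5682 bp in WT and 579 and 796 bp in cKO. Msmo1 had 1866 and 1353 bp of H3K27ac in WT and 0 bp in cKO, with H3K36me3 over the whole 2918 bp in all 4 libraries. At Fasn (chr11:120803933-120807155), which had no H3K27ac, H3K36me3 covered 1200 and 667 bp in WT and 0 and 157 bp in cKO. H3K36me3 at Scd2 and Fasn was lower in both cKO libraries, and at Msmo1 it did not differ. The lower order was seen in 20.0% of all H3.3 regions with H3K36me3 in both WT libraries. The background share without H3K27ac in cKO was 20.6%, and with 3 regions no share was read for this list.

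Housekeeping and cytoskeleton genes had H3K36me3 in both WT libraries at 8 of 10 members and in both cKO libraries at all 8, against 75.2% of all H3.3 regions. The widest lay at the convergent ends of Arpc1b, a subunit of the actin nucleator Arp2/3, and Pdap1 (chr5:145124207-145133515), where H3K36me3 covered 9309 bp in both WT libraries and in cKO replicate 2 and 8479 bp in cKO replicate 1. At Tpi1, a glycolytic enzyme (chr6:124806165-124814655), H3K27ac covered 6723 and 4623 bp in WT and 4616 and 4238 bp in cKO, and the region held 5 coding start sites. Vim, the intermediate filament vimentin, had 1945 and 501 bp of H3K27ac in WT and 0 bp in cKO.

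The 7 members of replication-coupled histone genes, at Hist1h3b, Hist1h3c, Hist1h3h, Hist1h4i, Hist1h4j, Hist1h4k and Hist2h3c2, carried H3K27ac only, and H3K36me3 was called at none of them in any of the 4 libraries. These genes encode H3 and H4 made in S phase, and their regions lie within clusters of near-identical genes, where reads may be split between copies. H3K27ac was present in both WT libraries at 6 of the 7, in both cKO libraries at 3 of these and in neither at 2, Hist1h3h and Hist1h4k, against 59.7% and 20.6% of all H3.3 regions. At Hist1h3b (chr13:23751453-23756139) it covered 0 and 1868 bp in WT and 1140 and 1500 bp in cKO, and at Hist1h4j (chr13:21734616-21737889) 760 and 501 bp in WT and 0 and 501 bp in cKO. Both regions also held a coding start site. The stem-loop shown above for Hist1h3b was found within the last 100 bases at 17 of 70 ends of such genes, and an AATAAA or ATTAAA within the last 40 bases at 17 of 70 (24.3%, 15.8 to 35.5). The search allowed a single loop sequence and stopped at the annotated end, so other forms and stem-loops past that end were not counted.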

How the data were processed

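CUT&RUN regions of 10 libraries were analysed, and the 5 IgG samples entered only as the authors' background. Reads were aligned by the authors with Bowtie2 (local mode, mm10), and HOMER then gave histone-style regions for each library without pooling. Per the file headers this used 500 bp peaks, 4-fold enrichment and a Poisson p of 1e-04 over control. The deposited lists hold starts, ends and a score that is constant, so heights were not available and no count test was possible. Depth is given as total tags in the headers. Regions present in some lists and missing from others may differ little in signal.

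The H3.3-HA lists were merged and regions overlapped (at least 1 bp) in both replicates kept. Genes came from GENCODE M21 basic (mm10). Bases covered and overlap were computed with Python 3.11.15 and numpy 2.4.6, and exact permutation tests and Wilson intervals with scipy 1.17.1. Functions were tested on simulated intervals. Sequences were read from GRCm38.

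Described genes were the 6 widest members, the 2 widest of each list, the 5 with most bases among WT-only and cKO-only regions of each mark, and the window edges. Further genes of a list were named with its counts after their values were seen. Members and lists were chosen with earlier results of these data known. Alternatives were another overlap, width minimum, list length, end or start annotation, window, a replicate block and leaving out each library. The labels call the replicates biological and do not say whether they came from separate mice, so p-values measure only the spread between these samples. The replicate numbers are shared by name only.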

Additional observations from a re-analysis of the deposited data

How the results depend on the processing

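For H3K27ac the difference between cKO and WT kept its direction under every alternative run, for the share of regions at ends and for the share of bases, though no test of 2 against 2 libraries could pass 0.05. It ranged over the libraries left out from -16.2 to -8.51 points for regions and from -13.2 to -7.72 points for bases. For H3K36me3 it ranged from -14.9 to 1.62 points and from -12.7 to 5.40 points, and turned positive in both only without cKO replicate 1. The replicate block, an exact sign-flip test, pairs libraries by number and cannot change a difference of means. It gave exact p = 0.5 each for regions (-12.8 and -6.63 points) and exact p = 0.5 and 1.00 for bases (-10.5 and -3.63 points). No call was computed with it. Deviations of same-numbered libraries at ends had a correlation of -0.0847 for H3K27ac and 0.0550 for H3K36me3, so the numbers were not taken to pair the samples.

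Counts moved more than shares. The 985 members became 485 with deposited regions of 1 kb or more and 544 with the window to 500 bp, and 957 to 1582 with a library left out. For H3K27ac WT only, the 107 became 54 with regions of 1 kb or more, 66 with lists of equal number, 52 with the window to 500 bp and 130 to 182 with a library left out. For H3K36me3 WT only, the 51 became 22 with regions of 1 kb or more and 22 with the window to 500 bp, and 53 to 175 with a library left out. For H3K27ac cKO only, the 17 became 11 with 50% coverage, 41 with lists of equal number and 32 to 54 with a library left out. For H3K36me3 cKO only, the 15 became 31 with 50% coverage, 6 with regions of 1 kb or more, 5 with the window to 500 bp and 17 to 52 with a library left out. Moves of over 1.5 times came from leaving out H3.3-HA replicate 1 (1521 members, 84 H3K36me3 WT only, 33 H3K27ac and 30 H3K36me3 cKO only) or replicate 2 (1582, 99, 32 and 33, with 182 H3K27ac WT only). For H3K27ac WT only they also came without WT replicate 2 (180) and cKO replicate 2 (178), and for H3K36me3 WT only without cKO replicate 2 (175). For H3K27ac cKO only they came without WT replicates 1 and 2 (47, 36) and cKO replicates 1 and 2 (54, 37), and for H3K36me3 cKO only without WT replicate 2 (45) and cKO replicate 1 (52). A count with a library left out asks for 1 library fewer to agree, and a narrower window holds fewer regions. The cause of the other moves was not tested. Without region heights, weak and strong regions weigh alike.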
